A study of Mus musculus with 16 samples.

Results

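The genes that encode histones, the proteins around which DNA is wound, were examined in liver RNA of mice lacking hepatocyte *Fgl1* and of their controls. Members were the rows of the expression table whose symbol begins H1f, H2ac, H2az, H2bc, H3c, H3f3, H4c or H4bc followed by a digit (H3f3 by anything) and whose value was above 0 in at least 1 mouse. Of 17003 genes in the table, 68 matched by symbol, 5 of these were at 0 in every mouse, and 63 were members. The expression values did not enter the choice beyond the requirement of a value above 0. All mice were males, 8 weeks old, on normal chow and labelled as fed, and all carried the floxed *Fgl1* allele (*Fgl1* fl/fl). The 8 *Fgl1* LWT mice were littermates without CRE, and the 8 *Fgl1* LKO mice carried CRE under the albumin promoter, which is active in hepatocytes. Whole liver was sequenced, so that cells in which the albumin promoter is silent contributed to each library with an intact *Fgl1* gene. Each mouse gave 1 library of poly(A)-selected, strand-marked RNA.

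Chromatin is built from core and linker histones. Pairs of H2A, H2B, H3 and H4 form the core of the nucleosome, and a linker histone, H1, binds where the DNA enters and leaves it. Most of the genes lie in clusters, have no introns and are read in S phase, when new DNA has to be packaged, and their mRNA normally ends just after a conserved stem-loop in place of a poly(A) tail. The replacement histones are made outside S phase from ordinary polyadenylated mRNA. Among them are H2A.Z (*H2az1* and *H2az2*), H3.3 (*H3f3a* and *H3f3b*) and the linker H1.0 (*H1f0*), which is typical of cells that have stopped dividing. Most hepatocytes of an adult mouse are not dividing. A library made by poly(A) selection takes up a stem-loop mRNA only as far as it carries A-rich sequence or was read through to a later poly(A) site, so the level given here for such a gene is that of the captured RNA.

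The stem-loops of the clustered members that the comparison turns on are shown because the mRNAs of such genes normally end just after them. Where the RNA captured here ended was not measured. The sequences were read from GRCm39 (mm39), with gene models of GENCODE vM39. The capitals mark the 16 bases of the stem-loop, and 5 bases stand on either side.
H1f2: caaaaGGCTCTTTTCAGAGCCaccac
H2ac18: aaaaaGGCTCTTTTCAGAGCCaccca
H2bc4: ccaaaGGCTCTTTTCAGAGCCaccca
H2bc6: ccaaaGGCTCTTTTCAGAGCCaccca
H2bc23: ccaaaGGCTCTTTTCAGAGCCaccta
H2bc24: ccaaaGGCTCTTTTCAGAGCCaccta
H3c14: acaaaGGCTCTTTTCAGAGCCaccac
H4c9: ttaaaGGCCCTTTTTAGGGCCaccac
The loop of *H1f2* lies at chr13:23923495-23923510 on the plus strand and that of *H2bc4* at chr13:23868630-23868645 on the plus strand. The loop of *H2bc6* is at chr13:23769514-23769529 (minus), that of *H2bc23* at chr13:21993916-21993931 (minus) and that of *H2bc24* at chr13:22018351-22018366 (plus). *H4c9* has its loop at chr13:22225136-22225151 (minus), *H2ac18* at chr3:96153348-96153363 (plus) and *H3c14* at chr3:96154643-96154658 (plus). Each lies after the coding sequence, from 25 bases (*H1f2*) to 59 bases (*H2ac18*) past the stop codon.

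A histone stem-loop was found within 150 bases of the stop codon in 53 of the 62 members with a match in the annotation, and 33 of those 53 shared the same 16 letters. No match was found for *H1f0*, *H1f10*, *H2ac22*, *H2az1*, *H2az2*, *H2bc21*, *H3f3a*, *H3f3b* and *H3f3c*. Of the 62 genes, 47 are on chromosome 13 and 9 on chromosome 3. *H4bc24* had no match of its own, and RefSeq gives that name to the gene ID that the table prints for *H2bc24*, so it was counted with H2B. For several stem-loop genes the annotated transcript runs on past the loop. It goes 840 bases further in *H1f2* and 1167 bases further in *H3c14*, but only 35 in *H2ac18*. On the genome, the annotated genes end 9518 bases after the loop for *H2bc4*, 3134 for *H2bc23* and 3334 for *H2bc24*. In these genes the loop thus lies nearer the start than the end. All their annotated transcripts have introns, and the longest hold 2414, 2015 and 2215 bases, so these distances include introns.

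The 250 bases before the annotated start are given for *H1f2*, which had the lowest unadjusted p-value of the members, and for *H2bc23* and *H2bc24*, whose values are tied. They are chr13:23922541-23922790 (plus), chr13:21994368-21994617 (minus) and chr13:22017663-22017912 (plus) in GRCm39, and the capitals mark the CCAAT box (CCAAT, or ATTGG where it reads on the other strand).
H1f2: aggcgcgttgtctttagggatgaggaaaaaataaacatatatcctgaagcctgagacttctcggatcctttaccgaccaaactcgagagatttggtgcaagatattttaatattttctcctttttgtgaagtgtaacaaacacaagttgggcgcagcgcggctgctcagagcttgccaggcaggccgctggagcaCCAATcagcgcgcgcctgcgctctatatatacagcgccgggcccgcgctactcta
H2bc23: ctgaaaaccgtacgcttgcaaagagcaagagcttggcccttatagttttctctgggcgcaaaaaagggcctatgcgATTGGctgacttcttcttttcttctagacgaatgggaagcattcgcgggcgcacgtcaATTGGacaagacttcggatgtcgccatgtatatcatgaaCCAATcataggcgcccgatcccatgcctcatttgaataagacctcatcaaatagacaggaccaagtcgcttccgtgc
H2bc24: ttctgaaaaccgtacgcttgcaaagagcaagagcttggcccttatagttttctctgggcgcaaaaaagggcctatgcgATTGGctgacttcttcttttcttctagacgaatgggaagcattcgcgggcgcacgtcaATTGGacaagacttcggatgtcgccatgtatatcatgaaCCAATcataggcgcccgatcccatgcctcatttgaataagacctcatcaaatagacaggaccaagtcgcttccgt
The *H1f2* stretch holds 1 CCAAT box, and the other two hold 3 each. The *H2bc23* and *H2bc24* stretches are the same over 248 bases, offset by the annotated start. Over windows from 250 bases before to 50 bases after the start, a CCAAT box on either strand was found in 47 of 62 members (75.8%) and in 39.9% of 21771 genes. The TATA box (TATAAA, either strand) was found in 31 members (50%) and in 13.2% of all genes. The letters AAACACAAA, known from H1 promoters, were found in 3 members (4.84%) and in 0.606% of all genes. The 3 were *H2ac4*, *H3f3a* and *H1f6*, the only linker gene among them. Only a match to all of these letters was counted, and shorter forms were not searched. *H1f2* (aaacacaag), *H1f4* (aaacacaac) and *H1f5* (aaacacaat) differ from them at the last base alone and were not counted. The matches counted for the CCAAT box, the TATA box and AAACACAAA are of letters only. The end letters of TATAAA can be shared with either of the other motifs.

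The deposited values were FPKM, a level scaled to transcript length and library size, so that genes can be set beside one another. The number of reads behind them is unknown. The summed FPKM of a mouse lay between 673153 and 786188, and 14116 to 14407 genes were above 0. *Fgl1*, the targeted gene, was at 157.8, 312 and 1330.72 FPKM (lowest, median and highest) in LWT and at 13.23, 50.3 and 89.99 FPKM in LKO, and the genotypes did not overlap. It had an adjusted p of 0.0725 in limma, and an exact permutation p of 0.000155, the smallest that the assignments of 16 mice to genotypes can give.

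A few genes made up nearly all of the histone mRNA captured. The first 3 by mean, *H2bc4*, *H2ac18* and *H3f3a*, held 60.6% of the summed histone FPKM, and the first 8 held 96.1%. These 8 were the only members with a mean above 10 FPKM, 7 lay between 1 and 10 FPKM and 48 were under 1 FPKM. Only 12 members were above 0 in all 16 mice, and 7 were above 0 in a single mouse. The highest member, *H2bc4*, encodes a core H2B and has a stem-loop, as does *H2ac18*, which encodes a core H2A. The 53 stem-loop genes had a median of 0.122 FPKM and reached 189.4 FPKM, with 9 above 1 FPKM. The 9 genes without a match had a median of 13 FPKM, and 6 of them were above 1 FPKM.

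**Figure D1:**
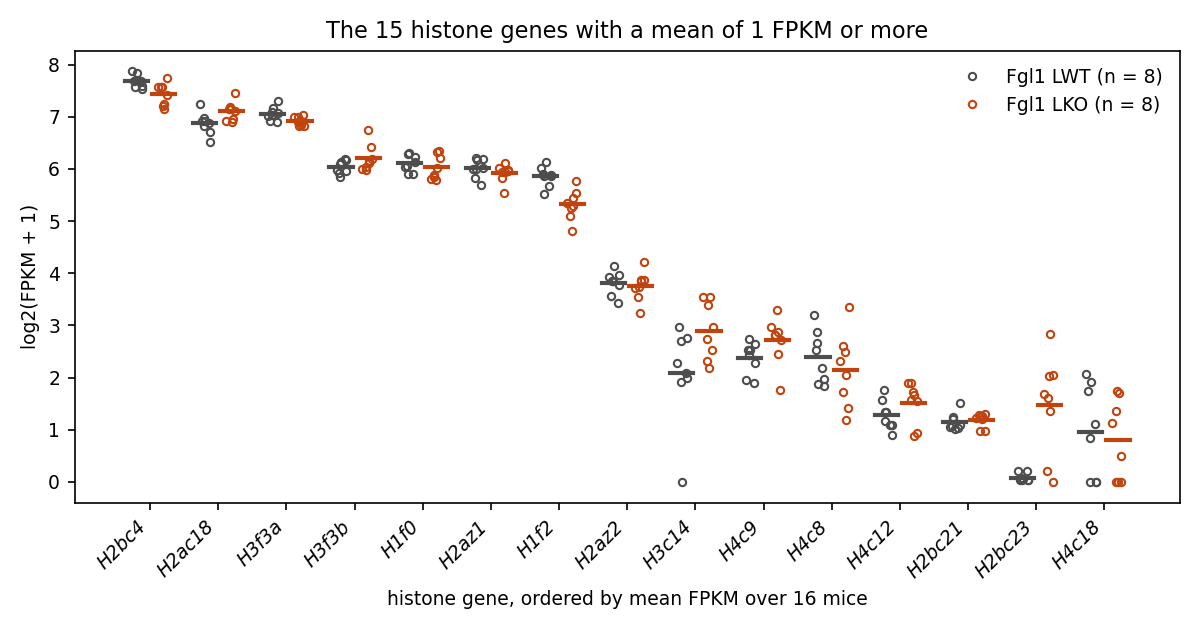
Level of the 15 histone genes with a mean of 1 FPKM or more in each mouse, as log2(FPKM + 1), ordered by mean. Open circles are mice (grey, 8 Fgl1 LWT; orange, 8 Fgl1 LKO) and bars are genotype means; the first 8 genes stand well above the rest, and H2bc23 is near 0 in all LWT mice.

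Levels by class followed those few genes. H3.3 gave 26.8% of the summed histone FPKM, H2B 26.6%, H2A 17.6%, linker H1 15.9% and H2A.Z 10.2%, whereas H4 gave 1.97% and the clustered H3 genes 0.908%. These shares describe captured mRNA, not protein. Summed over all members, the lowest, median and highest mouse were at 698.2, 735.8 and 817.1 FPKM in LWT and at 674.4, 707.7 and 814.3 FPKM in LKO. The totals of the genotypes overlapped almost over their whole range.

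The genotypes were compared across the whole table on log2(FPKM + 1), with limma and Benjamini-Hochberg adjustment over the 12770 genes whose mean reached 0.1 FPKM. Of the 63 members, 40 passed that filter. None of the 40 had an adjusted p under 0.05 in limma, as was the case for all genes (percent called 0). At an unadjusted p under 0.05, 3 members (7.5%) were lower in LKO, against 2.36% of all genes tested, and 6 members (15%) were higher, against 4.64%. The 3 lower were *H1f2*, *H2bc4* and *H3f3a*. The 6 higher were *H2ac18*, *H3c14*, *H2bc6* and 3 rows that share their reads, *H2bc23*, *H2bc24* and *H4bc24*. With those 3 rows counted once, a count added after the values were seen, 4 were higher. These 3 rows passed the filter through LKO only, where they are high, so the share of higher members cannot be set against that of all genes. The range of LKO overlapped that of LWT in all 40 members, and 0.0157% of all genes tested had genotypes that did not overlap.

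The median log2 fold change (LKO minus LWT) was 0.01 over the members tested and 0.01 over all genes tested, with 19 members lower and 21 higher. The median residual SD between mice of a genotype was 0.27 for members and 0.17 for all genes, on the log2 scale. Of the 40 members tested, 9 had a mean under 0.1 FPKM in 1 genotype and passed through the other, among them *H2bc23*, *H2bc24* and *H4bc24*, which were low in LWT. A member that passes in this way is bound to differ in mean, so its values are given as a description. In bulk liver, fewer cells of a type and less RNA per cell cannot be told apart.

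**Figure D2:**
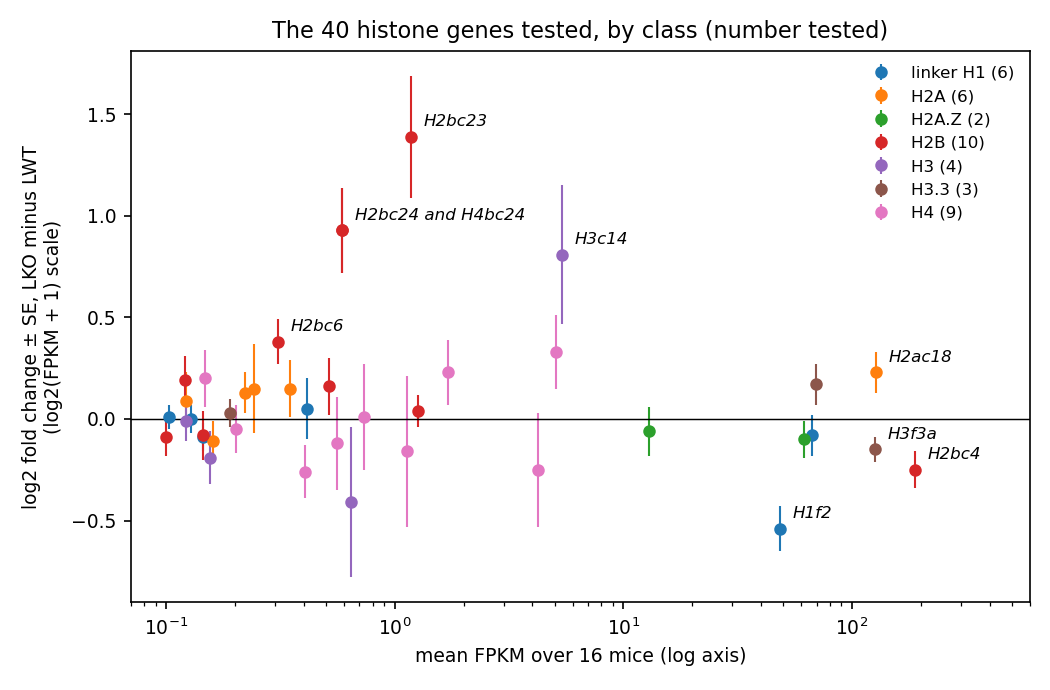
Log2 fold change (LKO minus LWT, on the log2(FPKM + 1) scale, with its SE) of the 40 members tested against their mean level over 16 mice on a log axis, coloured by histone class. Named genes had an unadjusted limma p under 0.05; H1f2 is the lowest point at -0.54, and H2bc23 the highest at 1.39.

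Among the linker histones, *H1f2*, which encodes the replication-dependent linker H1.2, was lower in LKO. It was at 44.88, 57.7 and 68.77 FPKM (lowest, median and highest) in LWT and at 27.22, 38.9 and 53.73 FPKM in LKO. All 8 LKO mice were below the LWT median, and the ranges overlapped because 2 LKO mice, replicates 3 (45.52) and 6 (53.73), were above the lowest LWT mouse. The means were 57.4 ± 7.5 and 39.6 ± 7.98 FPKM (SD, n = 8 each), a ratio of 0.690. The log2 fold change was -0.54 (SE 0.11), with an adjusted p of 0.419 in limma. Its unadjusted limma p was 0.000189 and its exact permutation p 0.000932 (two-sided). Its closest relative in coding sequence, *H1f3*, is 84.5% identical, so that reads of *H1f2* are easier to assign than those of most members.

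*H1f0* encodes H1.0 and had the highest mean of the linker genes. It was at 58.44, 67.4 and 77.54 FPKM in LWT and at 54.09, 61.3 and 79.99 FPKM in LKO, and the ranges overlapped widely. Its log2 fold change was -0.08 with a 95% interval from -0.28 to 0.13 (14 degrees of freedom), which does not reach the change of *H1f2*. The other linker genes were scarce. *H1f4*, *H1f3* and *H1f5*, all replication-dependent, had means of 0.412, 0.128 and 0.103 FPKM over the 16 mice and log2 fold changes within 0.05 of 0. That of *H1f4* was 0.23 with a pseudocount of 0.1 and 0.81 with 0.01, with unadjusted limma p-values of 0.662 and 0.401. *H1f10*, which encodes the replacement linker H1.10, was at 0.184 ± 0.155 FPKM in LWT and 0.105 ± 0.0529 in LKO (SD, n = 8), with an unadjusted limma p of 0.186. *H1f1* (mean 0.0675 FPKM) and the testis linker gene *H1f6* (0.0300 FPKM) did not pass the filter. Summed over the class, linker mRNA was at 126.6 ± 13.9 FPKM in LWT and 105.5 ± 17.2 in LKO (SD, n = 8).

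Within a genotype, *H1f2* and *H1f0* varied together across mice, though not past the adjustment over the 12 relations computed. In the 8 LKO mice Pearson's r was 0.74 (exact permutation p = 0.0295, adjusted 0.245) and Spearman's rho 0.76 (exact permutation p = 0.0368, adjusted 0.332), and r was 0.81 without the 2 mice farthest from the median of *H1f0*. In the 8 LWT mice r was 0.72 (exact permutation p = 0.0408, adjusted 0.245) and rho 0.60 (exact permutation p = 0.132, adjusted 0.396), but r was 0.37 without the 2 farthest mice. Leaving out the farthest mice also narrows the range of *H1f0*, and how far r rested on them was not tested. Both genes were measured in the same libraries, and the part of library scale was not tested. *H1f2* and *Fgl1* had an r of -0.57 in LWT (exact permutation p = 0.138, adjusted 0.447) with a rho of -0.67 (exact permutation p = 0.0831, adjusted 0.332), and r was -0.83 without the 2 farthest mice. In LKO the same relation had an r of -0.36 (exact permutation p = 0.387, adjusted 0.742) and a rho of -0.48 (exact permutation p = 0.243, adjusted 0.583), and r was -0.06 without the 2 farthest mice.

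*Saa1*, an acute-phase gene that differed widely between mice of both genotypes (63.77 to 16268.45 FPKM in LWT), was set against *H1f2* in the same way. The r was -0.57 in LWT (exact permutation p = 0.149, adjusted 0.447; rho -0.69, exact permutation p = 0.0694, adjusted 0.332) and -0.78 without the 2 farthest mice. In LKO it was -0.16 (exact permutation p = 0.715, adjusted 0.858; rho -0.12, exact permutation p = 0.793, adjusted 0.865) and -0.18 without the 2 farthest. No relation of *H1f2* held past the adjustment in either genotype.

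Of the H2A genes, *H2ac18*, a replication-dependent core H2A gene on chromosome 3, was higher in LKO. It was at 90.80, 117.9 and 151.40 FPKM in LWT and at 117.99, 138.2 and 175.59 FPKM in LKO. All 8 LKO mice were above the LWT median, and the ranges overlapped from 117.99 to 151.40 FPKM. The log2 fold change was 0.23 (SE 0.10), with an adjusted p of 0.696 in limma, an unadjusted p of 0.0296 and an exact permutation p of 0.0373. The coding sequence of *H2ac18* is identical to that of *H2ac19*, so the division of reads between them is uncertain, although the table gave *H2ac19* a mean of only 0.242 FPKM. The unadjusted limma p of *H2ac18* was 0.0657 under median-ratio scaling. The other H2A genes tested had log2 fold changes of -0.11 to 0.15. H2A.Z, the variant found at promoters, did not differ detectably. *H2az1* was at 64.1 ± 7.96 FPKM in LWT and 59.7 ± 6.75 in LKO (SD, n = 8), a log2 fold change of -0.10 with a 95% interval from -0.29 to 0.09. *H2az2* was at 13.2 ± 2.18 and 12.7 ± 2.63 FPKM (SD, n = 8), with an interval from -0.32 to 0.20.

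The H2B genes held the highest member and the largest ratio between genotypes. *H2bc4* was at 184.59, 205.0 and 233.11 FPKM in LWT and at 140.41, 179.1 and 214.18 FPKM in LKO. It was below the LWT median in 7 of 8 LKO mice, and 4 of the 8 lay inside the LWT range. The log2 fold change was -0.25 (SE 0.09), with an adjusted p of 0.696 in limma, an unadjusted p of 0.00993 and an exact permutation p of 0.0145. *H2bc4* overlaps the start of *H2ac6* over 301 bases on the opposite strand, and *H2ac6* had a mean of 0.220 FPKM.

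*H2bc23* was close to 0 in every LWT mouse and above 1 FPKM in 6 of the 8 LKO mice. In LWT it was at 0.02, 0.035 and 0.16 FPKM (lowest, median and highest). In LKO it was at 6.12, 2.23, 0.00, 1.56, 2.07, 3.15, 0.16 and 3.06 FPKM in replicates 1 to 8. Replicates 3 and 7 of LKO were thus no higher than the highest LWT mouse, and the other 6 were above every LWT mouse. The means were 0.0625 ± 0.0587 and 2.29 ± 1.94 FPKM (SD, n = 8), and the log2 fold change on the log2(FPKM + 1) scale was 1.39 (SE 0.30). Since this gene passed the filter through LKO only, these values are a description, with no test. With a pseudocount of 0.1 the log2 fold change was 3.17, and with 0.01 it was 4.09, since the LWT values are near the 0.01 FPKM at which the table is rounded.

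*H2bc24* and *H4bc24* had the same value in all 16 mice, and *H2bc23* was within 0.02 FPKM of 2 times that value in all 16. Both H2B genes have the same 402-base coding sequence and nearly the same start region, as shown above. Which of the loci the reads came from cannot be told from the table, and the 3 rows were read as 1 measurement. *H2bc24* by itself was at 0.0312 ± 0.0280 FPKM in LWT and 1.15 ± 0.971 in LKO (SD, n = 8), with a log2 fold change of 0.93 (SE 0.21). *H2bc6*, another replication-dependent H2B gene, was at 0.00, 0.065 and 0.42 FPKM in LWT and at 0.11, 0.520 and 0.86 FPKM in LKO. The genotypes overlapped through 2 LWT mice at 0.39 and 0.42 FPKM. Its log2 fold change was 0.38 (SE 0.11), with an adjusted p of 0.696 in limma and an exact permutation p of 0.0101. The annotated *H2bc6* gene shares 528 bases with *H1f4* on the same strand and 124 bases with *H4c4* on the other, and those reads may be divided between rows. The remaining H2B genes tested, *H2bc21* among them with a mean of 1.26 FPKM, had no unadjusted p under 0.05.

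**Figure D3:**
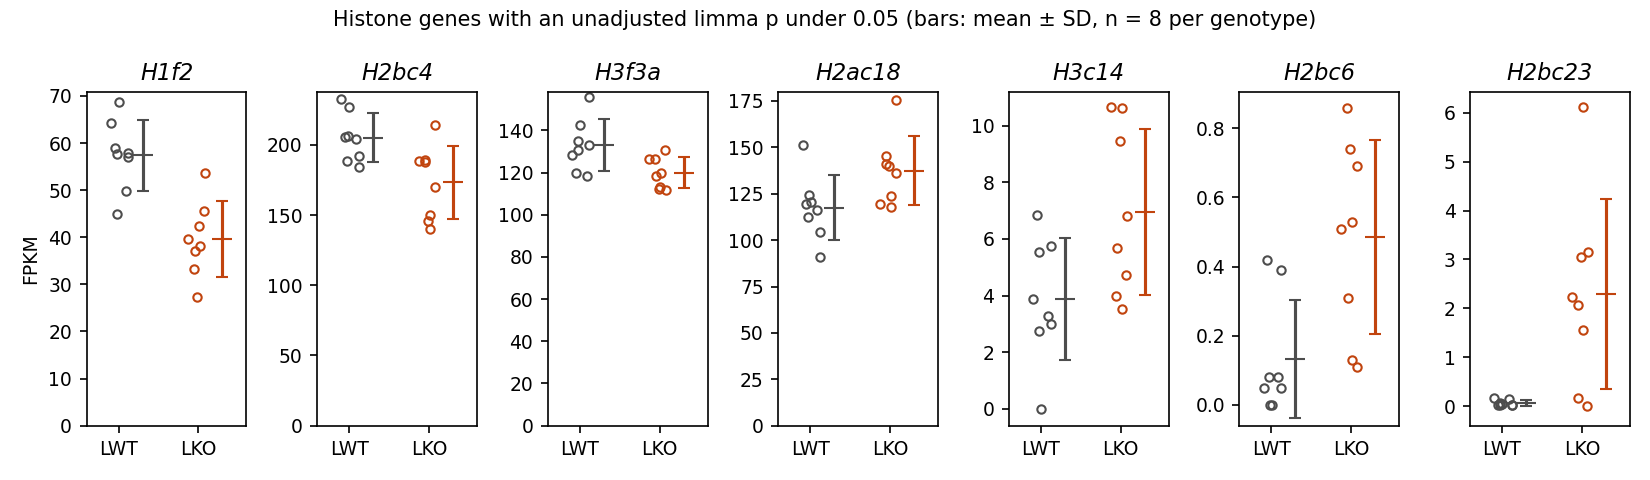
FPKM of 7 members with an unadjusted limma p under 0.05, each on its own axis. Circles are mice and bars the mean ± SD of 8 mice per genotype; H2bc24 and H4bc24 follow H2bc23 and are not drawn, and in every panel some mice of one genotype lie within the range of the other.

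The clustered H3 genes encode the replication-dependent H3. *H3c14* was at 0.00, 3.57 and 6.84 FPKM in LWT and at 3.54, 6.25 and 10.66 FPKM in LKO, with a log2 fold change of 0.81 (SE 0.34) and an adjusted p of 0.696 in limma. The exact permutation p was 0.0331. Its coding sequence is identical to that of *H3c15*, and the table divided the reads between them unevenly. In LWT replicate 1, *H3c14* was at 0.00 and *H3c15* at 5.62 FPKM. Added together they were at 4.98 ± 1.74 FPKM in LWT and 7.11 ± 2.88 in LKO (SD, n = 8), with an exact permutation p of 0.106, so that the difference in *H3c14* did not hold for the pair. The other 3 H3 genes tested had log2 fold changes from -0.41 to -0.01.

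The H3.3 genes encode the same protein from different mRNAs. *H3f3a* was at 118.23, 131.8 and 156.01 FPKM in LWT and at 111.85, 119.2 and 130.54 FPKM in LKO. All 8 LKO mice were below the LWT median, with wide overlap. The log2 fold change was -0.15 (SE 0.06), with an adjusted p of 0.696 in limma, an unadjusted p of 0.0302 and an exact permutation p of 0.0180. *H3f3b* was at 64.9 ± 5.56 FPKM in LWT and 73.7 ± 14.7 in LKO (SD, n = 8), with a log2 fold change of 0.17 and a 95% interval from -0.04 to 0.37. The high LKO mean included LKO replicate 8 at 105.61 FPKM. Summed, the H3.3 genes were at 198.0 ± 15.1 and 193.8 ± 14.7 FPKM (SD, n = 8), a difference smaller than the spread between mice. *H3f3c*, which has no annotated coding sequence, was at 0.190 FPKM over the 16 mice, with a log2 fold change of 0.03.

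No H4 gene had an unadjusted p under 0.05. *H4c9*, the highest, was at 4.30 ± 1.06 FPKM in LWT and 5.80 ± 1.84 in LKO (SD, n = 8), with a log2 fold change of 0.33 and a 95% interval from -0.04 to 0.71. *H4c8* was at 4.55 ± 2.00 and 3.92 ± 2.55 FPKM, and *H4c12* at 1.48 ± 0.507 and 1.94 ± 0.720 FPKM (SD, n = 8). Their intervals ran from -0.84 to 0.34 and from -0.11 to 0.56. Across the 9 H4 genes tested, 5 were lower and 4 higher, and the summed H4 mRNA was at 13.9 ± 3.17 and 14.9 ± 4.79 FPKM (SD, n = 8). The 61 members with a coding sequence were compared with all genes that matched by symbol, including those at 0 in every mouse. Of the 61, 36 were at least 98% identical to another such gene and 10 were 100% identical. The row-by-row values of the clustered genes are thus uncertain where the reads cannot be told apart.

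The mouse numbers in the labels were grouped here into 4 runs by gaps in the numbering, and the labels name no runs. The first run, 36 to 38, held 3 LWT mice and no LKO mouse, and the second, 48 to 55, held 1 LWT and 3 LKO mice. Mouse 55, an LKO mouse, lies as far in number from the third run as from the rest of the second, so its place is a choice. The genes were chosen on these same mice, so the values by run are a description. In the other 3 runs *H1f2* differed by -0.47, -0.40 and -0.63 on the log2 scale, *H2bc4* by -0.16, -0.17 and -0.24, and *H2ac18* by 0.27, 0.24 and 0.29. *H2bc23* differed by 1.47, 1.65 and 0.97 and *H2bc6* by 0.03, 0.13 and 0.74. *H3f3a* differed by -0.08, -0.15 and -0.06, while *H3c14* differed by 0.45, -0.21 and 0.85. With the run as a term in limma, the log2 fold change of *H1f2* was -0.50, with an unadjusted p of 8.3e-05 and an adjusted p of 0.52. That of *H3c14* was 0.32 with an unadjusted p of 0.387. *H2bc4* and *H3f3a* then had unadjusted p-values of 0.0759 and 0.138, leaving *H1f2* as the only lower member under an unadjusted p of 0.05. With the first run left out, *H1f2* was at -0.45, with an unadjusted limma p of 0.00434 and an adjusted p of 0.758.

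**Figure D4:**
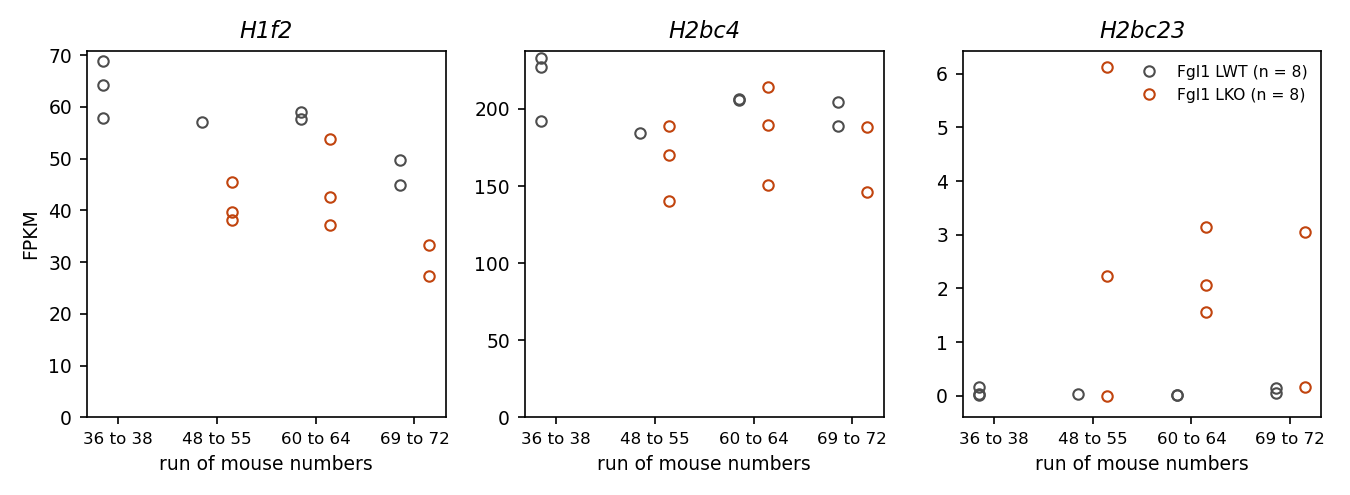
FPKM of H1f2, H2bc4 and H2bc23 in each mouse by run of mouse numbers (grey, Fgl1 LWT; orange, Fgl1 LKO). In the 3 runs with both genotypes the LKO mice lie below the LWT mice for H1f2 without overlap within a run, for H2bc4 with overlap in 2 of the runs, and for H2bc23 most LKO mice lie above.

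Position was described for the main histone cluster. The window ran from 1 Mb before the first to 1 Mb after the last member of the cluster on chromosome 13 (4.05 Mb in all), where 26 members and 21 other genes were tested. Of the 26 members, 2 were lower (7.69%) and 3 higher (11.5%) at an unadjusted p under 0.05, against 2.36% and 4.64% of all genes tested. The 3 higher include *H2bc23* and *H2bc24*, which were read as 1 measurement and passed the filter through LKO only. Of the 14 members tested elsewhere or without a position, 1 was lower (7.14%) and 3 higher (21.4%). *H4bc24*, which has no position and belongs to that same measurement, is among those 3. Of the 21 other genes in the window, 4 were lower (19.0%, against 2.36% of all genes tested) and 0 higher, and none had an adjusted p under 0.05 in limma. They were *Slc17a2* and *Slc17a1*, phosphate and anion transporter genes, *Carmil1*, a regulator of actin capping, and *Gmnn*, the inhibitor of replication licensing. Their log2 fold changes were -0.37, -0.24, -0.55 and -0.53. All 4 lie from 77.0 to 1017.4 kb beyond *H1f2* on the same side. Another 4 genes tested on that side, *Slc17a3* (0.03), *Slc17a4* (0.16), *Cmah* (-0.08) and *Ripor2* (-0.13), lie among them and had no unadjusted p under 0.05.

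*Carmil1* was at 3.39, 5.14 and 6.26 FPKM in LWT and at 2.38, 3.00 and 4.38 FPKM in LKO, with an unadjusted limma p of 0.000197 and an adjusted p of 0.419. Its values were compared with *H1f2* within each genotype. Pearson's r was 0.17 in LWT (exact permutation p = 0.692, adjusted 0.858; rho -0.02, exact permutation p = 0.977, adjusted 0.977) and 0.29 in LKO (exact permutation p = 0.495, adjusted 0.742; rho 0.43, exact permutation p = 0.299, adjusted 0.598). Without the 2 farthest mice r was 0.48 and 0.41. Both genes were lower in LKO, but no relation between them was detected among mice of 1 genotype.

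**Figure D5:**
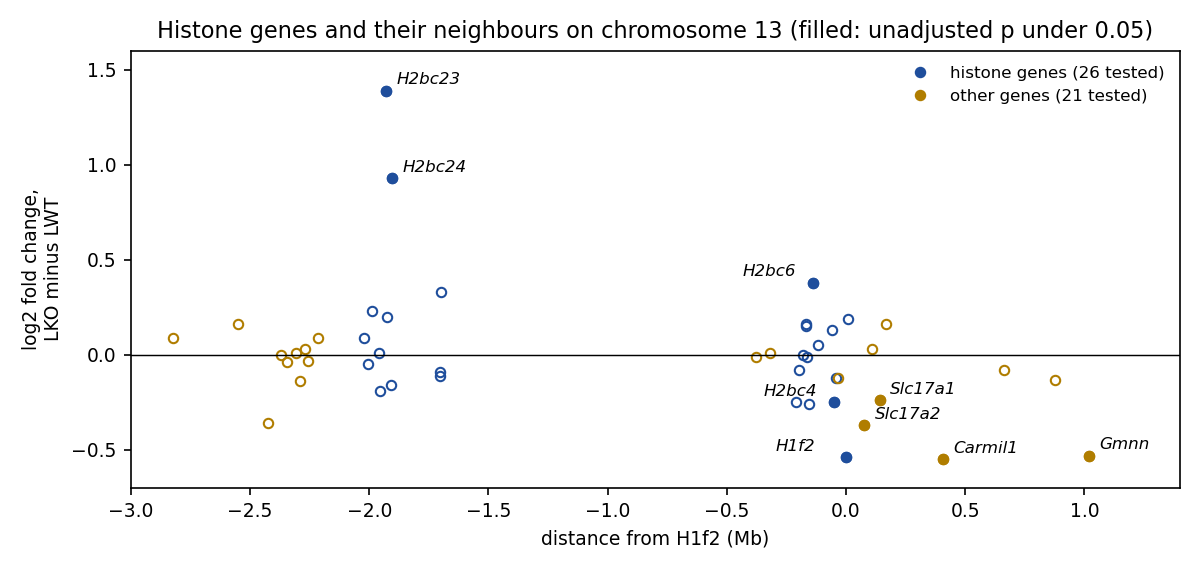
Log2 fold change (LKO minus LWT) of the 47 genes tested in the chromosome 13 window against their distance from H1f2 in Mb (blue, 26 histone genes; ochre, 21 other genes; filled, unadjusted limma p under 0.05). The filled ochre points all lie at negative values to the right of H1f2, and histone genes with an unadjusted p under 0.05 lie on both sides of 0.

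Genes that make and handle histone mRNA and protein were counted in the same way. Of 17 genes for histone mRNA processing tested, 0 were lower and 2 higher (11.8%, against 4.64% of all genes) at an unadjusted p under 0.05, with a median log2 fold change of 0.02. None had an adjusted p under 0.05 in limma. LKO replicate 8 was the highest mouse for 8 of the 18 genes of this list, including both of the higher ones, and its part in the result was not tested. The 2 higher were *Cpsf2* (0.15) and *Sympk* (0.17), parts of the complex that cleaves the mRNA after the stem-loop. Of 22 chaperone and deposition genes, 1 was higher (4.55%, against 4.64% of all genes), *Ep400* (0.15), whose product exchanges histones in chromatin. The median was -0.01, and none had an adjusted p under 0.05 in limma. Of 6 histone genes tested that the symbol rule leaves out, 1 was higher (16.7%), *H2aj*, an H2A variant gene. It was at 12 ± 1.8 FPKM in LWT and 14 ± 2.05 in LKO (SD, n = 8), with a log2 fold change of 0.21 and an adjusted p of 0.696 in limma.

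Levels differed widely among the proliferation genes. *Mki67*, a marker of cycling cells, had a median of 0.1 FPKM in LWT and 0.220 in LKO, with LWT replicate 8 at 1.88 FPKM. *Top2a*, which untangles DNA in dividing cells, had a median of 0.15 FPKM in LWT and 0.24 in LKO, with a log2 fold change of -0.01. It was at 1.37 FPKM in the same LWT mouse and at no more than 0.58 FPKM in any LKO mouse. *Pcna*, the sliding clamp of replication, was at 16.8 FPKM in LWT and 17.6 in LKO on average. LWT replicate 8 was the highest mouse for 12 of the 25 genes of the list. Of 24 proliferation genes tested, 2 were lower at an unadjusted p under 0.05 (8.33%, against 2.36% of all genes tested), *Tk1* (thymidine kinase, -0.45) and *Gmnn* (-0.53). Another 1 was higher (4.17%, against 4.64%), *Mcm4* (a part of the replicative helicase, 0.15). None had an adjusted p under 0.05 in limma, and the median log2 fold change was -0.02. *H2az1*, a replacement gene known to be higher in dividing cells, had an r with *Mki67* of 0.36 in LWT (exact permutation p = 0.472, adjusted 0.742) and of -0.04 in LKO (exact permutation p = 0.912, adjusted 0.912). The rho values were -0.12 (exact permutation p = 0.779, adjusted 0.865) and -0.35 (exact permutation p = 0.394, adjusted 0.651), and r without the 2 farthest mice was -0.26 and 0.06. With *Top2a* the r values were 0.40 (exact permutation p = 0.354, adjusted 0.742) and -0.04 (exact permutation p = 0.872, adjusted 0.912). The rho values were 0.26 (exact permutation p = 0.523, adjusted 0.697) and -0.32 (exact permutation p = 0.434, adjusted 0.651), and r without the 2 farthest mice was 0.18 and -0.04.

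Markers of other liver cells were measured beside the histone genes. The log2 fold change was positive for all 5 Kupffer cell markers, with an unadjusted p under 0.05 for 2, *Adgre1* (0.38) and *Vsig4* (0.37), and their sum ran from 51.68 to 108.11 FPKM in LWT and from 63.34 to 137.46 FPKM in LKO. Of 3 lymphocyte markers tested, *Cd79b* was higher (0.27) at an unadjusted p under 0.05. The lymphocyte sums ran from 0.74 to 1.83 FPKM in LWT and from 0.43 to 2.47 FPKM in LKO. *Adgre1*, *Vsig4* and *Cd79b* each had an adjusted p of 0.696 in limma. Among all genes tested, 4.64% were higher in LKO at an unadjusted p under 0.05. No marker of hepatocytes (6), sinusoidal endothelium (5), stellate cells (5), cholangiocytes (4) or erythroid precursors (4) among those tested had an unadjusted p under 0.05. The hepatocyte markers summed to 51681.75 to 87893.43 FPKM in LWT and 48016.29 to 70000.41 FPKM in LKO. The part of cell composition in the histone values was not tested.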

How the data were processed

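RNA of whole liver was sequenced from 8 mice of each genotype. The authors deposited FPKM values for 17003 genes, rounded to 2 decimals and written with a decimal comma, made from reads aligned to mm39 with HISAT and to reference genes with Bowtie2. Tool versions, the counting step and its use of strand are not given in the sources used here. Counts were not used here, so depth is unknown and no counting error is given. No column of sample values was left unused (0).

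Values were compared as log2(FPKM + 1) with limma 3.58.1 in R 4.3.3 (lmFit, eBayes with trend, two-sided), for the 12770 genes whose mean reached 0.1 FPKM. The Benjamini-Hochberg adjusted p was held to 0.05. The fit was tested on simulated data. Members and named pairs were also tested with exact permutation tests in Python 3.11.15 (scipy 1.17.1, numpy 2.4.6, pandas 2.3.3). A fold change on this scale understates the change of low genes. Intervals are the log2 fold change ± its SE times the t quantile. Positions and sequences are from GRCm39 with GENCODE vM39, and gene matches used the symbol. Alternatives were other pseudocounts (0.1 and 0.01), filters and scalings, a replicate block, robust moderation of the variances, mouse-number run as a covariate, and fits without the first run or without each mouse. The labels do not say which mice shared a litter or handling, and p-values measure the spread between these mice.

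Members, lists and tests were chosen with earlier results of these data known. Named were the members with an unadjusted p under 0.05 or genotypes that did not overlap, the 12 with the highest mean, every H1f, H2az and H3f3 member, *Fgl1*, *Carmil1*, *Mki67*, *Top2a* and *Saa1*, and list genes with an unadjusted p under 0.05. *H3c15*, *H2ac19*, *H2ac4*, *H2ac6*, *H4c4*, *H2bc21*, *Pcna*, *Slc17a3*, *Slc17a4*, *Cmah*, *Ripor2* and *H2ac22* were named after their values were seen, where they share sequence, a feature, a list or a position with a named gene.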

Additional observations from a re-analysis of the deposited data

Results flagged for a closer look

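Of 42 groups of 8 mice examined (21 members in 2 genotypes), 2 held a mouse set apart from the others by Dixon's test on log2(FPKM + 1), and about 1 in 20 groups is picked by chance. *H3c14* was at 0.00 FPKM in LWT replicate 1, while the next lowest LWT mouse was at 2.75 FPKM. The identical *H3c15* was at 5.62 FPKM in that mouse. *H3f3c* was at 0.44 FPKM in LWT replicate 8, with the next highest LWT mouse at 0.21 FPKM, and *Mki67* and *Top2a* were also highest in that mouse.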

How the results depend on the processing

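No member passed an adjusted p of 0.05 under any of the 27 alternatives. The count of lower members (3) was 2 to 4 when each mouse was left out in turn, and 1 with mouse-number run as a covariate. The count of higher members (6) was 5 to 7 without 1 mouse, 3 with a filter at a mean of 1 FPKM, which tests fewer genes, and 4 with the rows that share reads counted once, which was chosen after seeing the data. The median log2 fold change (0.01) was -0.01 to 0.04 without 1 mouse, -0.06 with the filter at 1 FPKM and -0.05 with a pseudocount of 0.01. With a replicate block 4 members were lower and 6 higher at an unadjusted p under 0.05. *H3c14* was lost (unadjusted limma p 0.0607), and *H4c9* (0.0199, higher) and *H4c4* (0.00821, lower) were gained. The labels give no pairing of mice by replicate number. Of 8 same-numbered pairs, 3 correlated above 0.1 (range -0.16 to 0.45), with a mean of 0.07 against -0.01 for other pairs. These correlations were not tested, so they cannot decide whether mice were paired.

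Directions turned only for members with small changes, and the cause was not tested. *H1f3* was at 0.31 (pseudocount 0.01), 0.04 (pseudocount 0.1), 0.01 (run as a term), 0.00 (equal summed FPKM) and -0.04 to 0.04 without 1 mouse. *H1f5* was at -0.60 and -0.07 with pseudocounts of 0.01 and 0.1, and at -0.03 to 0.03 without 1 mouse. *H3f3c* was at -0.17 (pseudocount 0.01), -0.03 (run as a term), -0.01 (without the first run) and -0.01 to 0.07 without 1 mouse. *H2az2* was at 0.02 and 0.06 with the run as a covariate and when the first run was left out, and at -0.12 to 0.02 without 1 mouse. *H1f4* was at -0.02 to 0.11 without 1 mouse. *H1f2* was at -0.60 to -0.47 and *H2bc23* at 1.19 to 1.6 without 1 mouse.

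Most members were under 1 FPKM, close to the rounding of the table, and depth is unknown, so that an absent difference among them cannot be read from these values.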
